A study of Mus musculus with 32 samples.

Results

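The mammary gland of the mouse was compared between early and established lactation, on the arrays labelled normal dietary fat at lactation day 9 (4 arrays) and at lactation day 2 (4 arrays). These are 8 of the 32 arrays of the series, picked out by those labels, and the comparison was chosen with earlier results of these data known. All 8 came from wild-type FVB dams kept on normal laboratory chow, and the labels name no transgene, mutation or drug in either group. Age, parity and litter size are not given. Tissue was lysed sample by sample, but separate dams are not stated for the 4 arrays of a day, so p-values measure the spread between these samples, which may be technical in part. Chow arrays of pregnancy days 12 and 17 and of lactation day 1 (4 each) share the fit and give context. Mammary arrays of lactation day 10 from dams moved to diets with 8% or 40% of energy from fat (3 each) are set beside them as 1 range only, since the feeding differed and since the labels' description field gives 40% for all 6 while the titles, used here, give 8% for 3.

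The lactating gland is a secretory epithelium of alveoli. Luminal cells make milk proteins, lactose and milk fat, myoepithelial cells squeeze the alveoli, and both sit in a stroma of fibroblasts, fat cells, vessels and immune cells. In the first days after birth the alveoli still enlarge and their cells still divide, while secretion rises steeply. In established lactation output is high and sustained, the adipose stroma is depleted, and plasma cells that secrete antibodies into milk settle in the gland. The comparison asks which transcripts differ between these stages.

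Values are log2 of the deposited array intensities, and differences are day 9 minus day 2. Median intensities were 19.0 to 19.9 at day 2 and 19.4 to 21.5 at day 9, where replicates 1, 3 and 4 lay above every day 2 array. Over the 2397 dimmest probe sets tested, the medians of day 9 replicates 1 to 4 were 0.15, -0.03, 0.11 and 0.13 relative to day 2. The part of this offset in the results was not tested. A probe set was tested where 1 of the 5 stage means reached a log2 level of 4.22, the median of all deposited values, called the detection line below, and a group mean under it gives no exact size of change. A call is an adjusted p under 0.05 in limma. The tissue label held: the whey protein gene Wap read 15.75 and 15.76, and the liver gene Alb was under the line at both days. Day 9 replicate 1 stood apart from the rest of its group: its stromal genes were low, its mean correlation with the day 2 arrays was 0.937 against 0.9496 to 0.9631 for the others, and limma gave it a weight of 0.65. Day 9 replicate 2 had a weight of 0.58 and lay nearest to day 2. Among the 1797 called probe sets replicate 1 was the day 9 array farthest from day 2 in 42.2% and replicate 2 the nearest in 45.6%. The counts of called list members and the differences of single genes are therefore given over all 8 arrays and also without day 9 replicate 1, called replicate 1 from here on. Second probe sets of a gene, groups by brightness, ranks of the stages and the alternatives below use all 8 arrays. Where alternatives ended or added a call, or moved the difference of a called gene by over 1.5 times, the main ones stand beside the difference. These alternatives average all probe sets of a gene, dim ones included, force the arrays to the same distribution (quantile normalization), add an offset of 16 to the intensities before log2, weight the arrays, fit the 8 arrays alone, or leave arrays out.

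Of 7189 tested probe sets, 1797 (25.0%) were called, 634 higher (8.82%) and 1163 lower (16.2%) at day 9. Without replicate 1 there were 1470 of 7148 (20.6%), 503 higher (7.04%) and 967 lower (13.5%), and 1400 of these were among the 1797. Leaving out replicate 2 instead raised the count to 2104. At least 2-fold changes numbered 143 higher (1.99%) and 302 lower (4.20%), or 146 (2.04%) and 247 (3.46%) without replicate 1. The arrays of the 2 days did not overlap for 919 probe sets that were higher (12.8%) and 1204 that were lower (16.7%), so 2123 in all (29.5%), or 2360 of 7148 (33.0%) without replicate 1. The balance of the directions depended on brightness and on scaling. In the brightest 2396 probe sets 10.4% were called higher and 30.8% lower, against 7.76% and 4.51% in the dimmest 2397, and after quantile normalization the calls split into 941 higher and 927 lower. By genes, each read from its brightest probe set, 458 of 5480 were called higher (8.36%) and 945 lower (17.2%), and the median difference over tested genes was -0.005, and -0.011 without replicate 1. The shares 8.36% and 17.2% are the background against which the gene lists below are read. They hold for the fit on all 8 arrays. Without replicate 1 the shares over genes are not given, and those over probe sets were smaller, 7.04% higher and 13.5% lower.

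**Figure D1:**
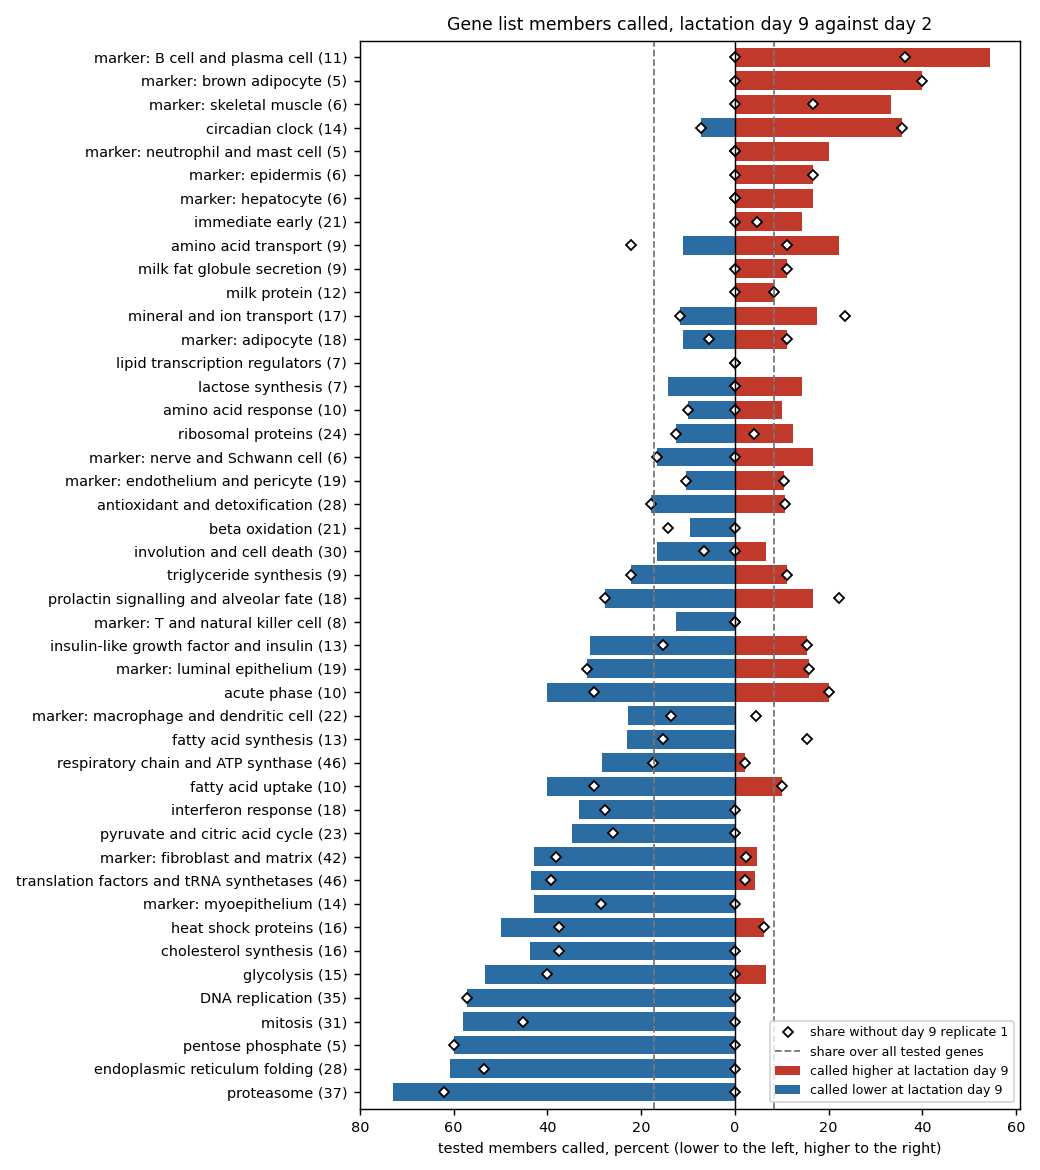
Share of tested members of each gene list called higher (red, to the right) or lower (blue, to the left) at lactation day 9 against day 2, in percent, with the number tested in brackets and the share called without day 9 replicate 1 as diamonds; dashed lines mark the shares over all tested genes, 8.36% higher and 17.2% lower. Proteasome, endoplasmic reticulum folding, mitosis and DNA replication members lie far to the left of the dashed line with and without the replicate, and B cell and plasma cell markers far to the right. The dashed lines come from the fit on all 8 arrays, and the diamonds are divided by the number tested in that fit.

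Genes of the cell cycle fell. Among genes of DNA replication 0 of 35 tested members were called higher and 20 lower, and 0 higher and 20 lower without replicate 1 (median difference -0.94, and -0.93 without replicate 1). Mcm5, a subunit of the helicase that unwinds DNA at replication origins, read 9.40, 8.38, 8.91 and 8.72 at day 2 and 4.23, 6.0, 5.08 and 4.81 at day 9. The days were far apart, and replicate 1 was the lowest of all. Mcm5 differed by -3.83 (SE 0.38, limma adjusted p = 8.14e-07), and by -3.56 without replicate 1 (adjusted p = 4.73e-06), -1.89 averaged over all its probe sets. Rrm2, the regulated subunit of ribonucleotide reductase that makes deoxynucleotides, read 8.46, 7.50, 8.41 and 7.93 at day 2 and 4.41, 4.93, 4.35 and 4.44 at day 9. The day 9 arrays lay close together, just above the detection line. Rrm2 differed by -3.54 (SE 0.50, limma adjusted p = 4.18e-05), and by -3.50 without replicate 1 (adjusted p = 0.000199). Pcna, the sliding clamp of the DNA polymerases, read 9.92, 9.73, 10.10 and 10.01 at day 2 and 7.50, 8.05, 7.43 and 7.48 at day 9. Pcna differed by -2.32 (SE 0.26, limma adjusted p = 4.36e-06), and by -2.29 without replicate 1 (adjusted p = 2.62e-05). The flap endonuclease Fen1 followed, 8.26, 7.71, 7.83 and 8.03 at day 2 and 4.52, 6.17, 5.84 and 5.73 at day 9, without overlap. Fen1 differed by -2.39 (SE 0.35, limma adjusted p = 5.86e-05), and by -2.04 without replicate 1 (adjusted p = 0.000187).

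Genes of mitosis moved the same way, and 0 of 31 tested members were called higher and 18 lower, with 0 higher and 14 lower without replicate 1 (median difference -1.12, and -1.01 without replicate 1). Mki67, the antigen used to mark dividing cells, read 9.38, 9.55, 9.43 and 10.13 at day 2 and 7.05, 8.42, 7.52 and 7.46 at day 9. Mki67 differed by -2.01 (SE 0.46, limma adjusted p = 0.00305), and by -1.82 without replicate 1 (adjusted p = 0.0132), -1.03 averaged over all its probe sets. Earlier stage means were 8.52 on pregnancy day 12, 7.41 on pregnancy day 17 and 8.81 on lactation day 1, and those of Rrm2 were 6.92 on pregnancy day 12, 4.52 on pregnancy day 17 and 6.88 on lactation day 1, so in both genes day 2 was the highest stage. Cdk1, the kinase that drives entry into mitosis, read 7.69, 7.49, 7.02 and 7.98 at day 2 and 4.83, 5.98, 4.60 and 4.86 at day 9. Cdk1 differed by -2.48 (SE 0.50, limma adjusted p = 0.00109), and by -2.40 without replicate 1 (adjusted p = 0.00408). The day 9 replicate 2 value was the highest of its group in both genes. Stmn1, which destabilises microtubules, read 8.73, 8.28, 8.08 and 8.72 at day 2 and 4.08, 6.34, 4.98 and 4.63 at day 9. Stmn1 differed by -3.45 (SE 0.49, limma adjusted p = 4.46e-05), and by -3.14 without replicate 1 (adjusted p = 0.000247), -1.64 averaged over all its probe sets. In the pairs of bracketed values that follow, the first is the log2 difference over all 8 arrays and the second that without replicate 1. Cks2, a subunit of the cyclin-dependent kinases, and cyclin A2 also fell: Cks2 (-2.37 and -2.21, with its day 9 mean under the detection line) and Ccna2 (-2.31 and -2.25, -1.33 with an offset of 16, with its day 9 mean under the detection line). Among the brighter uncalled members, Ccne1 read 5.99 ± 0.02 at day 2 and 6.01 ± 0.13 at day 9 (mean ± SD, n = 4 each) and Hmgb2 read 5.57 ± 0.14 at day 2 and 5.49 ± 0.17 at day 9 (mean ± SD, n = 4 each). In the 6 day 10 diet arrays Mcm5 ranged over 4.31 to 5.83, Rrm2 over 4.22 to 4.36 and Mki67 over 7.10 to 7.59, near the day 9 values. In whole tissue, fewer dividing cells and less of these transcripts per cell cannot be told apart.

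Promoter windows of 3 of these genes are shown as background, since E2F factors and the CHR element are known regulators of genes expressed in S phase and in mitosis. The windows run from 250 bases before to 50 after a gene's start, in RefSeq's GRCm38.p6, 5′ to 3′ on the strand of the gene. Capitals mark the E2F letters TTTGGCGC or TTTCGCGC in Mcm5 and the CHR letters TTTGAA in Cdk1 and Mki67, on either strand. The windows lie at chr8:75109259-75109558 (plus strand), chr10:69352863-69353162 (minus strand) and chr7:135716330-135716629 (minus strand).
Mcm5: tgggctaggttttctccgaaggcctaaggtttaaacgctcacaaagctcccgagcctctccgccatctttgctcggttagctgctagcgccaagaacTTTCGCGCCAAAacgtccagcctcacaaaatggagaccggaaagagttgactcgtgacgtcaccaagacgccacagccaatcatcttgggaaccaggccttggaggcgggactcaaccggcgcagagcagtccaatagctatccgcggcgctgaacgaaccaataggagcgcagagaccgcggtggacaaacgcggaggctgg
Cdk1: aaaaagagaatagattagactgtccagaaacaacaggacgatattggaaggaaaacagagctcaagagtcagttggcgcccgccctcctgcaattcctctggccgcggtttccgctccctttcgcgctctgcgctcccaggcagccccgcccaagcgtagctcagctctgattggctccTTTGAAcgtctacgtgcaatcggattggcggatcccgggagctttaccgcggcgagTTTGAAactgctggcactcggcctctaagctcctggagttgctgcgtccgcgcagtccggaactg
Mki67: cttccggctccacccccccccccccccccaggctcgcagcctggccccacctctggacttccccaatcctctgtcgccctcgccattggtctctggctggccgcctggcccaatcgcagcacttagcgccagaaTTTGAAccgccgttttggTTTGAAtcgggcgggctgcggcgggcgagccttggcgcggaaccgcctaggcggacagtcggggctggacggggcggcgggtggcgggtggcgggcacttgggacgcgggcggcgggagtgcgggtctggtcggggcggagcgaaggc
The Mcm5 window holds the E2F letters on both strands in overlapping positions, starting 153 and 149 bases before the gene's start. The CHR letters start 71 and 15 bases before the start of Cdk1 and 116 and 98 before that of Mki67. Of the DNA replication genes called lower, 18 had a window and 6 of them (33.3%) held the E2F letters, against 0.929% of 27025 genes with a window and 1.83% of 4418 tested ones. Of the mitosis genes called lower, 14 had a window, 11 (78.6%) held the CHR letters, against 20.2% of all and 14.8% of tested genes, and 12 (85.7%) held CCAAT, against 41.1% and 43.2%. These are matches of letters and show no binding. The lists were made by function and their uncalled members were not counted, so whether the letters go with the fall was not tested.

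Single genes of the cytoskeleton and of epithelial cells were named by the size of their change or as luminal markers. Among them 3 tubulins, subunits of microtubules, fell: Tubb2a (-3.61 and -3.45, -1.73 averaged over all its probe sets), Tubb5 (-2.96 and -2.77) and Tuba1a (-2.38 and -2.15). All 3 are read by probe sets that share probes within the gene family, so the members cannot be separated. Krt19, a keratin of luminal cells, read 10.22, 10.18, 9.84 and 9.93 at day 2 and 7.66, 6.93, 7.41 and 7.34 at day 9, with a wide gap, and here replicate 1 was the highest day 9 array. Krt19 differed by -2.71 (SE 0.17, limma adjusted p = 4.71e-09), and by -2.82 without replicate 1 (adjusted p = 7.32e-09). Krt18 and Krt8, the keratin pair of simple epithelia, changed less, Krt18 (-1.17 and -1.12, -0.57 averaged over all its probe sets) and Krt8 (-0.94 and -0.97), and so did the junction protein plakoglobin, Jup (-1.20 and -1.16). Lamb3, a chain of the basement membrane laminin of the anchoring filaments, read 7.54, 7.47, 7.33 and 6.93 at day 2 and 4.14, 4.31, 4.98 and 3.84 at day 9. Lamb3 differed by -3.0 (SE 0.26, limma adjusted p = 2.66e-07), and by -2.95 without replicate 1 (adjusted p = 1.9e-06), -1.63 averaged over all its probe sets. Gjb2, the gap junction protein connexin 26, read 12.34, 11.68, 11.82 and 11.59 at day 2 and 9.77, 9.63, 8.84 and 9.50 at day 9. Gjb2 differed by -2.42 (SE 0.21, limma adjusted p = 3.22e-07), and by -2.53 without replicate 1 (adjusted p = 8.57e-07). Among all luminal markers 3 of 19 tested members were called higher (15.8%) and 6 lower (31.6%), with 3 higher and 6 lower without replicate 1. The list as a whole did not fall: 12 of the 19 differences were above 0 (median difference 0.11, and 0.06 without replicate 1). The members called higher are not among the genes named here. Among uncalled members Cd24a read 12.26 ± 0.06 at day 2 and 12.42 ± 0.10 at day 9 (mean ± SD, n = 4 each) and Cldn3 read 6.57 ± 0.50 at day 2 and 6.81 ± 0.38 at day 9 (mean ± SD, n = 4 each).

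Fam3c, which encodes a secreted cytokine-like protein, had the second largest fall over all 8 arrays, after Saa2, and the largest without replicate 1, each gene read from its brightest probe set. It read 8.84, 8.97, 8.95 and 8.54 at day 2 and 3.95, 5.57, 4.87 and 5.29 at day 9. Fam3c differed by -3.90 (SE 0.25, limma adjusted p = 4.71e-09), and by -3.58 without replicate 1 (adjusted p = 1.16e-09), -2.53 averaged over all its probe sets. Its means were 10.54 on pregnancy day 12, 10.57 on pregnancy day 17 and 9.08 on lactation day 1, so the day 9 level was the lowest of the 5 stages, and the day 10 arrays were lower still, 3.17 to 4.0. Rgs16, a regulator of G protein signalling, and Cyba, a subunit of the NADPH oxidase, ended under the detection line: Rgs16 (-3.51 and -3.46, with its day 9 mean under the detection line) and Cyba (-3.35 and -3.32, with its day 9 mean under the detection line). The variant histone gene H2ax did as well, H2ax (-3.05 and -2.78, with its day 9 mean under the detection line). Car4, a membrane carbonic anhydrase, rose across the earlier stages (5.65 on pregnancy day 12, 7.57 on pregnancy day 17 and 10.18 on lactation day 1). It then fell, reading 10.64, 9.96, 10.50 and 10.54 at day 2 and 6.77, 8.18, 7.82 and 8.43 at day 9. Car4 differed by -2.61 (SE 0.29, limma adjusted p = 3.77e-06), and by -2.27 without replicate 1 (adjusted p = 4.73e-06). Car2, a cytosolic carbonic anhydrase, fell with it, Car2 (-1.74 and -1.75). Crabp2, a retinoic acid carrier, and Pradc1 completed this group, Crabp2 (-2.39 and -2.65) and Pradc1 (-2.45 and -2.28).

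**Figure D2:**
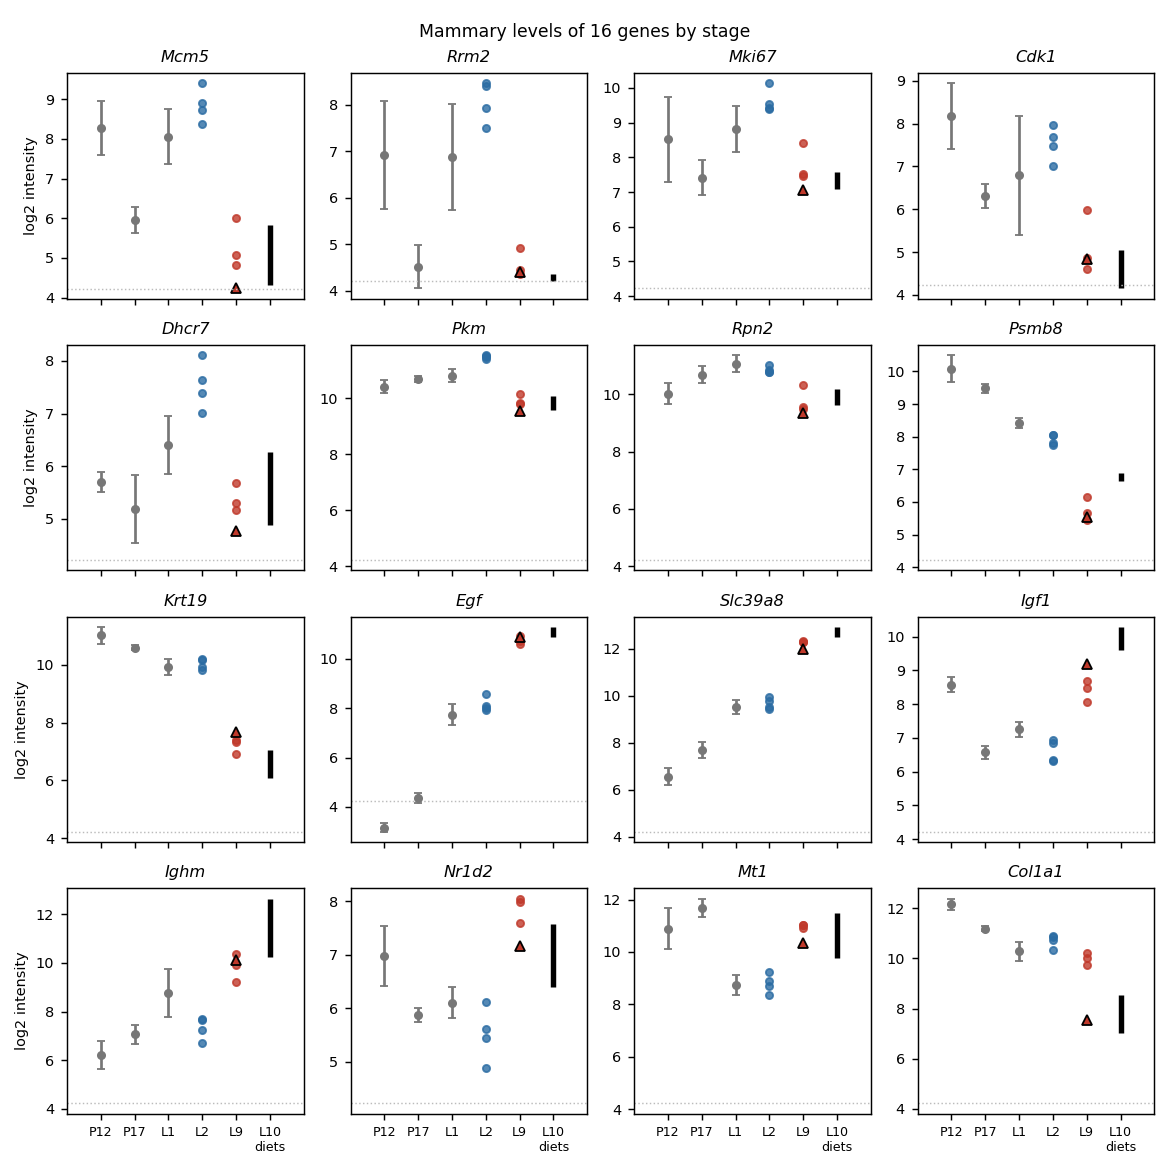
log2 intensity of 16 genes at pregnancy days 12 and 17 and lactation day 1 (grey, mean ± SD, n = 4), in each array of lactation days 2 (blue) and 9 (red, with replicate 1 as a triangle), and over the 6 day 10 diet arrays (black bar, lowest to highest); the dotted line is the detection line at 4.22. The first 9 genes are lower and the next 6 higher at day 9 with no overlap of the arrays, while Col1a1 shows replicate 1 at 7.53, apart from the other 3 at 9.73 to 10.23.

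Genes of protein folding in the endoplasmic reticulum, the entry to the secretory pathway, were lower at day 9. Of its genes, 0 of 28 tested members were called higher and 17 lower, with 0 higher and 15 lower without replicate 1 (median difference -0.70, and -0.62 without replicate 1). Replicate 1 was the most extreme array: the median over the list stood at -1.14, -0.44, -0.65 and -0.58 in day 9 replicates 1 to 4, relative to day 2. Rpn2, a subunit of the complex that attaches sugars to new proteins, read 11.01, 10.79, 10.76 and 10.83 at day 2 and 9.35, 10.32, 9.50 and 9.55 at day 9. Rpn2 differed by -1.17 (SE 0.21, limma adjusted p = 0.000394), and by -1.06 without replicate 1 (adjusted p = 0.00212). Its partner Rpn1 read 9.13, 9.33, 9.15 and 9.32 at day 2 and 6.91, 8.61, 8.26 and 8.24 at day 9, where replicate 1 was far under the rest, Rpn1 (-1.23 and -0.86, -0.67 averaged over all its probe sets). The disulfide isomerase Pdia3 and the stress-induced factor Manf fell as well, Pdia3 (-1.16 and -1.0) and Manf (-1.15 and -0.89). Xbp1, the transcription factor that expands this compartment, was not called, at 11.97 ± 0.15 at day 2 and 11.78 ± 0.42 at day 9 (mean ± SD, n = 4 each), and was called lower with array weights. Srpr, a receptor subunit that docks ribosomes at the membrane, was not called either, at 10.85 ± 0.14 at day 2 and 11.10 ± 0.17 at day 9 (mean ± SD, n = 4 each), and was called higher after quantile normalization and with array weights.

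Of the 17 genes called lower, 14 had a promoter window and 5 of them (35.7%) held the letters of the ER stress element, a CCAAT box followed by a spaced CCACG on either strand, against 0.137% of all and 0.181% of tested genes; CCAAT by itself, which the element contains, was in 12 (85.7%). The window of Hspa5, the main chaperone of the compartment, is shown with the element in capitals, starting 65 bases before the gene's start, at chr2:34771840-34772139 (plus strand). It was picked after the search.
Hspa5: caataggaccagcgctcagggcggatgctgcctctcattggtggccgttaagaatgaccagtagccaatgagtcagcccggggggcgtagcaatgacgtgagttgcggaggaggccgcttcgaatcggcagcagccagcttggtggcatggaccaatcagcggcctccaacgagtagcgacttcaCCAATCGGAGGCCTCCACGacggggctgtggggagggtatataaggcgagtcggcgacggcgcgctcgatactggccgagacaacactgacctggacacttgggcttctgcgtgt
Hspa5 itself read 11.79, 11.69, 11.78 and 11.77 at day 2 and 10.18, 11.14, 10.93 and 10.92 at day 9. Hspa5 differed by -0.97 (SE 0.26, limma adjusted p = 0.00884), and by -0.76 without replicate 1 (adjusted p = 0.0409). The match is again of letters alone, and uncalled members of this list were not counted either.

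Subunits of the proteasome, which degrades tagged proteins, were lower in most members: 0 of 37 tested members were called higher and 27 lower, with 0 higher and 23 lower without replicate 1 (median difference -0.47, and -0.47 without replicate 1). Quantile normalization left 15 called lower. Psmb8, a subunit of the immunoproteasome induced by interferon, read 8.05, 8.06, 7.82 and 7.74 at day 2 and 5.54, 6.14, 5.45 and 5.67 at day 9 and had already declined through pregnancy (10.09 on pregnancy day 12, 9.48 on pregnancy day 17 and 8.42 on lactation day 1). Psmb8 differed by -2.22 (SE 0.17, limma adjusted p = 6.56e-08), and by -2.16 without replicate 1 (adjusted p = 7.1e-07). Constitutive subunits changed less and together, for example Psmd4 (-1.18 and -1.08), Psmb2 (-1.13 and -1.07) and the activator subunit Psme3 (-1.32 and -1.10). Psmb7 was not called, at 8.25 ± 0.26 at day 2 and 8.26 ± 0.17 at day 9 (mean ± SD, n = 4 each), and neither was Psma7, at 9.12 ± 0.20 at day 2 and 9.14 ± 0.21 at day 9 (mean ± SD, n = 4 each). Heat shock proteins, the cytosolic and mitochondrial chaperones, showed the same direction, 1 of 16 tested members were called higher and 8 lower (1 higher and 6 lower without replicate 1, and 1 higher and 5 lower after quantile normalization). Hsp90aa1 read 11.24, 10.80, 10.70 and 11.14 at day 2 and 9.44, 9.59, 9.72 and 9.44 at day 9, with no overlap. Hsp90aa1 differed by -1.42 (SE 0.20, limma adjusted p = 3.42e-05), and by -1.39 without replicate 1 (adjusted p = 0.00018), -0.64 averaged over all its probe sets. Hspa8 and Hspd1 followed, Hspa8 (-1.32 and -1.23) and Hspd1 (-1.28 and -1.12, -0.45 averaged over all its probe sets), and Hspd1 had another probe set of the opposite sign that was not called.

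The machinery of translation divided. Among translation factors and aminoacyl-tRNA synthetases, which load amino acids on tRNA, 2 of 46 tested members were called higher and 20 lower, with 1 higher and 18 lower without replicate 1 (median difference -0.31, and -0.33 without replicate 1). The synthetases led: Hars read 8.02, 7.31, 7.55 and 7.51 at day 2 and 6.55, 6.49, 6.43 and 6.47 at day 9. Hars differed by -1.12 (SE 0.20, limma adjusted p = 0.000449), and by -1.14 without replicate 1 (adjusted p = 0.00131). In addition, Lars (-1.27 and -1.42), Vars (-1.11 and -1.11) and Eprs (-1.10 and -1.04) fell as well. The elongation factor Eef1a1 read 13.72 ± 0.07 at day 2 and 13.65 ± 0.11 at day 9 (mean ± SD, n = 4 each) and was not called. Of the ribosomal proteins 3 of 24 tested members were called higher and 3 lower (median difference 0.00), and Rps24 read 13.88 ± 0.14 at day 2 and 13.89 ± 0.13 at day 9 (mean ± SD, n = 4 each). Of the 3 called higher, 1 stayed so without replicate 1.

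Sugar catabolism fell in part. In glycolysis 1 of 15 tested members were called higher and 8 lower, with 0 higher and 6 lower without replicate 1, and quantile normalization left 4 lower. Pkm, pyruvate kinase, which makes pyruvate in the last step, read 11.42, 11.48, 11.52 and 11.55 at day 2 and 9.54, 10.17, 9.82 and 9.84 at day 9. Day 2 was the highest of the 5 stages, and its arrays lay close together. Pkm differed by -1.65 (SE 0.14, limma adjusted p = 2.08e-07), and by -1.55 without replicate 1 (adjusted p = 9.8e-07). Ldha, lactate dehydrogenase, read 11.89, 11.69, 11.75 and 11.56 at day 2 and 10.67, 10.83, 10.89 and 10.78 at day 9. Ldha differed by -0.93 (SE 0.09, limma adjusted p = 7.41e-07), and by -0.89 without replicate 1 (adjusted p = 5.2e-06). Both Tpi1 (-0.89 and -0.90, -0.59 after quantile normalization) and Pgk1 (-0.69 and -0.51, -0.40 and not called after quantile normalization) fell too. Hk2, a hexokinase, read 7.66 ± 0.30 at day 2 and 7.75 ± 0.40 at day 9 (mean ± SD, n = 4 each) and was not called. In the pentose phosphate pathway, which supplies NADPH for fat synthesis, 0 of 5 tested members were called higher and 3 lower, unchanged in number without replicate 1 (median difference -1.14, and -1.10 without replicate 1). Tkt, transketolase, read 12.66, 12.80, 12.56 and 12.87 at day 2 and 11.05, 11.77, 11.53 and 11.56 at day 9, and Pgd, which makes NADPH, read 10.18, 10.0, 9.92 and 9.90 at day 2 and 8.35, 9.10, 8.62 and 8.95 at day 9. The differences were Tkt (-1.24 and -1.10) and Pgd (-1.24 and -1.11, -0.58 averaged over all its probe sets), and replicate 1 was the lowest array in each. Taldo1 read 10.38 ± 0.13 at day 2 and 10.22 ± 0.20 at day 9 (mean ± SD, n = 4 each).

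Mitochondrial genes were mixed and depended on scaling. In the citric acid cycle 0 of 23 tested members were called higher and 8 lower, with 0 higher and 6 lower without replicate 1, and in the respiratory chain 1 of 46 tested members were called higher and 13 lower, with 1 higher and 8 lower without replicate 1. After quantile normalization the counts were 5 higher and 5 lower in the first list and 5 higher and 4 lower in the second. Pcx, pyruvate carboxylase, which feeds citrate export for fat synthesis, read 10.42, 10.67, 10.41 and 10.64 at day 2 and 9.25, 9.86, 9.73 and 9.77 at day 9, without overlap. Pcx differed by -0.88 (SE 0.14, limma adjusted p = 9.73e-05), and by -0.75 without replicate 1 (adjusted p = 0.000307), -0.41 averaged over all its probe sets. Ogdh and Suclg1, enzymes of the cycle, fell by a like amount, Ogdh (-0.98 and -0.81) and Suclg1 (-0.83 and -0.68), while citrate synthase, Cs, was not called at 10.56 ± 0.14 at day 2 and 10.57 ± 0.17 at day 9 (mean ± SD, n = 4 each). Ndufv1, of respiratory complex I, read 9.29, 9.20, 9.13 and 9.08 at day 2 and 7.94, 8.49, 8.25 and 8.29 at day 9, Ndufv1 (-0.93 and -0.83), and Cox6a1 of complex IV 12.68 ± 0.03 at day 2 and 12.58 ± 0.28 at day 9 (mean ± SD, n = 4 each) without a call.

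Genes of fatty acid synthesis showed few calls. Of this list 0 of 13 tested members were called higher and 3 lower, but 2 higher and 2 lower without replicate 1 (median difference -0.28, and -0.15 without replicate 1), and the list median in day 9 replicates 1 to 4 was -0.56, 0.01, -0.20 and -0.24. Fasn, the fatty acid synthase, read 13.45, 13.44, 13.61 and 13.35 at day 2 and 12.73, 13.45, 13.58 and 13.19 at day 9. Replicate 1 was clearly the lowest and the other 3 overlapped day 2. Fasn differed by -0.22 (SE 0.15, limma adjusted p = 0.318), and by -0.05 without replicate 1 (adjusted p = 0.836). Acly, which makes acetyl-CoA from citrate, read 13.63, 13.60, 13.96 and 13.67 at day 2 and 13.16, 13.34, 13.51 and 13.42 at day 9. Acly differed by -0.36 (SE 0.12, limma adjusted p = 0.043), and by -0.29 without replicate 1 (adjusted p = 0.14), a call lost when any 1 of 6 arrays was left out, replicate 1 among them, -0.34 and not called after quantile normalization. In all it lost the call in 9 of 19 alternatives. Scd1, the desaturase that makes oleate, read 14.51, 14.53, 14.54 and 14.53 at day 2 and 13.46, 14.54, 14.22 and 14.31 at day 9. The day 2 arrays lay very close together, and replicates 1, 3 and 4 of day 9 were under them, replicate 1 by far the most. It was not called, Scd1 (-0.40 and -0.17, 0.61 and called averaged over all its probe sets). Of its other probe sets, 1 was not called and 1, of the r class described further on, was called higher by 2.35. Scd2, a related desaturase, did fall, 12.21, 11.36, 11.96 and 11.87 at day 2 and 10.56, 10.63, 10.86 and 10.39 at day 9, with no overlap. Scd2 differed by -1.24 (SE 0.31, limma adjusted p = 0.00628), and by -1.23 without replicate 1 (adjusted p = 0.0168). Dbi, the acyl-CoA binding protein, fell as well, Dbi (-0.69 and -0.64). Srebf1, the transcription factor that activates this pathway, read 11.11, 10.07, 10.65 and 10.74 at day 2 and 10.30, 10.35, 10.95 and 10.73 at day 9, the days fully overlapping, Srebf1 (-0.06 and 0.04). Thrsp, a lipogenic regulator in mammary tissue, read 12.37, 12.49, 12.26 and 12.26 at day 2 and 12.31, 12.72, 13.08 and 12.83 at day 9. Thrsp differed by 0.39 (SE 0.18, limma adjusted p = 0.115), and by 0.53 without replicate 1 (adjusted p = 0.0353), called without replicate 1, called with array weights. Elovl5, an elongase, was the other member called higher without replicate 1 and not with it. Lipid transcription regulators as a list had 0 of 7 tested members called on either set of arrays in limma, and 1, Usf2, had an unadjusted p under 0.05. In limma, Fasn, Srebf1 and Scd1 had unadjusted p-values of 0.163, 0.753 and 0.0685.

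Cholesterol synthesis genes fell in part: 0 of 16 tested members were called higher and 7 lower, with 0 higher and 6 lower without replicate 1 (median difference -0.59, and -0.59 without replicate 1). Dhcr7, the last enzyme of the route, read 8.11, 7.02, 7.63 and 7.40 at day 2 and 4.77, 5.68, 5.17 and 5.30 at day 9. The gap between the days exceeded 1 log2 unit. Dhcr7 differed by -2.31 (SE 0.30, limma adjusted p = 1.83e-05), and by -2.16 without replicate 1 (adjusted p = 0.000104). Its day 2 level was the highest of the stages (5.71 on pregnancy day 12, 5.19 on pregnancy day 17 and 6.40 on lactation day 1). Idi1, which makes an isoprenoid unit, read 8.85, 7.92, 8.35 and 8.43 at day 2 and 6.36, 7.94, 7.46 and 7.10 at day 9. Fdps, which joins these units, read 10.54, 9.92, 10.15 and 10.40 at day 2 and 8.15, 9.70, 9.31 and 9.34 at day 9. Replicate 1 was the lowest in both, replicate 2 overlapped day 2 in Idi1 and not in Fdps, and the differences were Idi1 (-1.17 and -0.89) and Fdps (-1.13 and -0.80, -0.57 averaged over all its probe sets). Nsdhl fell as well, Nsdhl (-1.57 and -1.55, -0.94 averaged over all its probe sets). Hmgcs1 missed the threshold. Hmgcs1 differed by -0.89 (SE 0.32, limma adjusted p = 0.0521), and by -0.90 without replicate 1 (adjusted p = 0.0886), called without day 2 replicate 3, called in the 8 arrays alone, called with array weights, called with a stricter filter. Sqle read 8.02 ± 0.37 at day 2 and 7.94 ± 0.29 at day 9 (mean ± SD, n = 4 each). Of the 6 genes called lower that had a promoter window, 0 held the sterol element letters TCACCCCAC, present in 0.614% of all genes, which says only that these exact letters were not in these windows.

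Genes of glycerol and fatty acid supply changed in single members. In triglyceride synthesis 1 of 9 tested members were called higher and 2 lower, with 1 higher and 2 lower without replicate 1. Gpat4, an acyltransferase that starts the route, was the one called higher, by 0.49 and by 0.41 without replicate 1. Gpd1, which makes glycerol 3-phosphate for triglycerides, read 9.49, 10.01, 9.69 and 9.74 at day 2 and 8.20, 8.39, 8.29 and 8.18 at day 9. Gpd1 differed by -1.47 (SE 0.19, limma adjusted p = 1.85e-05), and by -1.45 without replicate 1 (adjusted p = 9.59e-05), -0.88 averaged over all its probe sets. Its mitochondrial counterpart fell to below the line, Gpd2 (-1.46 and -1.44, -0.82 with an offset of 16, with its day 9 mean under the detection line). Lpin1 and Agpat1, later enzymes of the route, were not called, at 8.95 ± 0.41 at day 2 and 9.44 ± 0.40 at day 9 (mean ± SD, n = 4 each) and 8.30 ± 0.20 at day 2 and 8.45 ± 0.29 at day 9 (mean ± SD, n = 4 each). Lpin1 was called higher after quantile normalization. In fatty acid uptake 1 of 10 tested members were called higher and 4 lower, with 1 higher and 3 lower without replicate 1. Acsl4, an acyl-CoA synthetase, read 8.85, 9.18, 8.95 and 9.03 at day 2 and 6.99, 8.86, 7.36 and 8.15 at day 9, where replicate 2 overlapped day 2, Acsl4 (-1.16 and -0.88, a call lost when any 1 of 2 arrays was left out, replicate 1 among them), while Acsl5 (-0.78 and -0.72, not called in the 8 arrays alone) and Lrp1 (-0.63 and -0.62, -0.42 with an offset of 16) kept their calls without replicate 1. Slc27a3, of the fatty acid transport family, rose from levels at the line, 4.22, 3.99, 4.14 and 4.17 at day 2 and 5.59, 5.24, 5.50 and 5.17 at day 9, Slc27a3 (1.24 and 1.17, 0.78 with an offset of 16, with its day 2 mean under the detection line). Lpl, lipoprotein lipase, which frees fatty acids from blood lipids, read 12.52, 12.65, 12.53 and 12.76 at day 2 and 12.44, 12.77, 12.56 and 12.32 at day 9, overlapping throughout, Lpl (-0.09 and -0.06). In beta oxidation 0 of 21 tested members were called higher and 2 lower, or 0 higher and 3 lower without replicate 1, with Hadhb (-0.55 and -0.56, -0.30 and not called after quantile normalization) and Etfb (-0.61 and -0.54, -0.31 averaged over all its probe sets) as the members called over all 8 arrays.

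Milk protein genes read near the top of the scale, and the caseins and Wap were not called. Of them 1 of 12 tested members were called higher and 0 lower, on either set of arrays, and the one called is the growth factor gene Egf. Csn2, β-casein, read 14.30, 14.34, 14.16 and 14.40 at day 2 and 14.48, 14.21, 14.30 and 14.23 at day 9, and Wap read 15.80, 15.74, 15.71 and 15.76 at day 2 and 15.80, 15.68, 15.80 and 15.75 at day 9, the days interleaved in both. Their differences were Csn2 (0.01 and -0.05) and Wap (0.00 and -0.01). Lalba, α-lactalbumin, the subunit that turns a galactosyltransferase to lactose synthesis, read 14.71, 14.77, 14.68 and 14.82 at day 2 and 14.36, 14.22, 14.55 and 14.52 at day 9, lower in 4 of 4 day 9 arrays. Lalba differed by -0.34 (SE 0.47, limma adjusted p = 0.646), and by -0.32 without replicate 1 (adjusted p = 0.735), called in the 8 arrays alone. The SE comes from the spread within all 5 stages. Fitted on the 8 arrays alone, in limma as well, Lalba was lower with an adjusted p of 0.0294 and Fabp3 higher with 0.0428. Among genes of fat globule secretion, Btn1a1, butyrophilin, read 13.43 ± 0.06 at day 2 and 13.29 ± 0.17 at day 9 (mean ± SD, n = 4 each), and Fabp3 14.03 ± 0.15 at day 2 and 14.34 ± 0.09 at day 9 (mean ± SD, n = 4 each). Cidea, a lipid droplet protein, rose, reading 12.81, 12.86, 12.78 and 12.92 at day 2 and 13.64, 13.60, 13.57 and 13.39 at day 9. Cidea differed by 0.70 (SE 0.20, limma adjusted p = 0.0132), and by 0.67 without replicate 1 (adjusted p = 0.0356), 0.54 and not called after quantile normalization, not called without replicates 1 and 2. B4galt1, the galactosyltransferase of lactose synthesis, read 9.32, 9.09, 9.14 and 8.88 at day 2 and 10.20, 9.28, 9.75 and 9.63 at day 9, with replicate 1 the highest: B4galt1 (0.61 and 0.44, a call lost when any 1 of 7 arrays was left out, replicate 1 among them). It lost the call in 9 of 19 alternatives in all. Slc2a1, the main glucose transporter of the gland, read 7.78 ± 0.26 at day 2 and 7.38 ± 0.13 at day 9 (mean ± SD, n = 4 each) and was not called.

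Egf had the largest rise of all genes over the 8 arrays, each read from its brightest probe set, while Orm1 and Slc39a8 lay slightly above it without replicate 1. Epidermal growth factor is secreted into milk, and its gene lies at chr3:129677574-129755322 of GRCm38.p6. Its brighter probe set read 8.0, 8.09, 7.93 and 8.57 at day 2 and 10.87, 10.62, 10.72 and 10.93 at day 9. Replicate 1 lay inside its group. Egf differed by 2.64 (SE 0.18, limma adjusted p = 7.45e-09), and by 2.61 without replicate 1 (adjusted p = 1.02e-07), 1.36 averaged over all its probe sets. This was a 6.22-fold rise in that probe set over all arrays. Its other probe set, of the r class described further on, was under the detection line and moved by 0.09. The climb had begun earlier, with means of 3.16 on pregnancy day 12, 4.35 on pregnancy day 17 and 7.74 on lactation day 1, and the day 10 arrays ranged over 10.88 to 11.30. Slc39a8, a zinc and manganese importer at chr3:135816882-135888572 of GRCm38.p6, showed the same course, 9.43, 9.79, 9.50 and 9.92 at day 2 and 11.96, 12.26, 12.31 and 12.28 at day 9. Slc39a8 differed by 2.54 (SE 0.19, limma adjusted p = 5e-08), and by 2.62 without replicate 1 (adjusted p = 1.79e-07). Mt1, metallothionein, which binds zinc, read 8.70, 9.24, 8.34 and 8.89 at day 2 and 10.36, 10.91, 11.04 and 11.04 at day 9. Mt1 differed by 2.04 (SE 0.31, limma adjusted p = 7.69e-05), and by 2.20 without replicate 1 (adjusted p = 9.82e-05). Its pregnancy levels had been as high, 10.89 on pregnancy day 12, 11.68 on pregnancy day 17 and 8.73 on lactation day 1, so days 1 and 2 were the low point. Among the other ion transporters, Atp2b2, the calcium pump that exports calcium to milk, rose, 8.03, 7.98, 7.64 and 8.07 at day 2 and 9.08, 8.40, 9.12 and 8.76 at day 9. Atp2b2 differed by 0.91 (SE 0.18, limma adjusted p = 0.000786), and by 0.83 without replicate 1 (adjusted p = 0.00388). The phosphate transporter Slc34a2 read 12.07 ± 0.31 at day 2 and 12.65 ± 0.12 at day 9 (mean ± SD, n = 4 each) without a call, and was called higher in the fit on the 8 arrays alone (adjusted p = 0.0213). In the list as a whole 3 of 17 tested members were called higher and 2 lower (4 higher and 2 lower without replicate 1).

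Growth factor and hormone signalling genes moved in both directions. Igf1, insulin-like growth factor 1, read 6.94, 6.36, 6.33 and 6.86 at day 2 and 9.19, 8.07, 8.68 and 8.49 at day 9, with replicate 1 the highest. Igf1 differed by 1.98 (SE 0.20, limma adjusted p = 9.02e-07), and by 1.79 without replicate 1 (adjusted p = 2.9e-06). A second Igf1 probe set moved the same way and was not called (0.69). In the day 10 arrays it was higher still, 9.59 to 10.29. Igfals and Igfbp6, of the insulin-like growth factor and insulin list, were called lower, Igfals (-0.79 and -0.63, not called without replicate 1, -0.49 and not called after quantile normalization, -0.32 and not called averaged over all its probe sets) and Igfbp6 (-0.68 and -0.48, a call lost when any 1 of 5 arrays was left out, replicate 1 among them, -0.57 and not called after quantile normalization, -0.58 and not called with an offset of 16, not called in the 8 arrays alone, not called with array weights). Igfbp6 lost its call in 11 of 19 alternatives. Socs2, an inhibitor of growth hormone and prolactin signalling, rose, 5.18, 5.38, 5.52 and 5.77 at day 2 and 6.54, 7.51, 7.29 and 7.23 at day 9. Socs2 differed by 1.68 (SE 0.20, limma adjusted p = 6.98e-06), and by 1.88 without replicate 1 (adjusted p = 1.92e-06). Cish, of the same family, read 7.72 ± 0.41 at day 2 and 7.66 ± 0.38 at day 9 (mean ± SD, n = 4 each). Stat5a, the factor that carries the prolactin signal to milk genes, read 7.58, 7.85, 8.06 and 8.25 at day 2 and 7.21, 7.82, 8.25 and 8.24 at day 9, with replicate 1 the lowest and no call, Stat5a (-0.05 and 0.17). Ccnd1, cyclin D1, needed for alveolar growth, read 8.19, 7.72, 7.68 and 7.93 at day 2 and 4.59, 6.49, 6.58 and 6.47 at day 9. Replicate 1 was far under the other 3, and the difference moved from -1.85 to -1.37 without it, called in both (adjusted p = 0.000584 and 0.000472 in limma). Id2 and Nfix fell also, Id2 (-1.18 and -1.13, not called without replicates 1 and 2) and Nfix (-0.97 and -1.05). Sfrp2, a secreted Wnt inhibitor, rose, 5.61, 6.83, 5.98 and 6.17 at day 2 and 7.88, 8.01, 8.72 and 8.52 at day 9. Sfrp2 differed by 2.14 (SE 0.25, limma adjusted p = 4.75e-06), and by 2.27 without replicate 1 (adjusted p = 8.06e-06).

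Several clock genes rose. Of the circadian list 5 of 14 tested members were called higher and 1 lower, the same counts without replicate 1, against the backgrounds of 8.36% and 17.2%. Nr1d2, a repressor in the clock, read 4.88, 6.12, 5.61 and 5.45 at day 2 and 7.17, 7.99, 7.60 and 8.05 at day 9. Nr1d2 differed by 2.19 (SE 0.26, limma adjusted p = 7.72e-06), and by 2.36 without replicate 1 (adjusted p = 8.58e-06). Dbp, a clock-driven activator, read 4.28, 4.36, 4.44 and 4.53 at day 2 and 5.13, 6.57, 6.67 and 7.01 at day 9, replicate 1 being the lowest. Dbp differed by 1.94 (SE 0.39, limma adjusted p = 0.001), and by 2.34 without replicate 1 (adjusted p = 0.000101). Tef, of the same family, and Per1, a core repressor, rose as well, Tef (1.44 and 1.63) and Per1 (1.49 and 1.63). Per2 rose by 0.41, and by 0.41 without replicate 1. Cry1, another repressor, differed by -0.91, and by -0.82 without replicate 1, and Csnk1d and Rora were not called. The labels used here give no hour of dissection, so time of day cannot be told apart from stage. The glucocorticoid-responsive genes Fkbp5 and Sgk1 were higher: Fkbp5 read 6.62, 7.50, 6.50 and 6.61 at day 2 and 7.89, 8.20, 9.82 and 9.03 at day 9. Fkbp5 differed by 1.92 (SE 0.31, limma adjusted p = 0.000139), and by 2.21 without replicate 1 (adjusted p = 3.69e-05). Sgk1 read 6.56, 8.40, 6.62 and 7.11 at day 2 and 9.04, 9.08, 8.66 and 7.77 at day 9, overlapping, Sgk1 (1.47 and 1.33, a call lost when any 1 of 3 arrays was left out, replicate 1 among them). Fkbp5 spread over 6.04 to 9.93 in the day 10 arrays. Zfp36, which destabilises cytokine messages, rose by less, Zfp36 (0.66 and 0.74).

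Further rises were in metabolic and secretory genes. Arg2, the mitochondrial arginase, read 7.21, 7.64, 7.22 and 7.86 at day 2 and 9.92, 9.34, 8.99 and 9.17 at day 9, with replicate 1 the highest. Arg2 differed by 1.87 (SE 0.21, limma adjusted p = 3.16e-06), and by 1.68 without replicate 1 (adjusted p = 1.06e-05), 0.98 averaged over all its probe sets. Ucp3, a mitochondrial carrier, read 4.64, 5.76, 4.91 and 5.05 at day 2 and 6.41, 7.30, 6.54 and 7.64 at day 9. Ucp3 differed by 1.88 (SE 0.34, limma adjusted p = 0.000476), and by 2.07 without replicate 1 (adjusted p = 0.000487). Prdx4, a peroxiredoxin of the secretory pathway, rose, 11.19, 11.39, 11.45 and 11.58 at day 2 and 12.24, 12.28, 12.21 and 12.27 at day 9, its day 9 arrays close together, Prdx4 (0.85 and 0.85). In the same antioxidant list, glutathione reductase and thioredoxin reductase fell, Gsr (-1.55 and -1.47) and Txnrd1 (-1.16 and -1.22), and 3 of 28 tested members were called higher and 5 lower, the same counts without replicate 1.

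Acute phase genes, secreted defence proteins, split, with more of them lower. In this list 2 of 10 tested members were called higher and 4 lower, with 2 higher and 3 lower without replicate 1. Of the 10 differences, 3 were above 0 (median difference -0.44, and -0.47 without replicate 1). Saa2, serum amyloid A2, had the deepest fall of all genes over the 8 arrays, 11.59, 11.80, 12.14 and 11.53 at day 2 and 5.98, 9.98, 7.48 and 7.75 at day 9. The day 9 arrays were widely spread, with replicate 1 the lowest and replicate 2 the highest, and all lay under day 2. Saa2 differed by -3.97 (SE 0.62, limma adjusted p = 0.000116), and by -3.36 without replicate 1 (adjusted p = 0.000391). This probe set shares probes within the family, and a second Saa2 probe set fell by 3.67. Lrg1, a leucine-rich glycoprotein, fell evenly, 8.11, 8.89, 8.81 and 8.04 at day 2 and 5.85, 5.69, 5.60 and 5.56 at day 9. Lrg1 differed by -2.79 (SE 0.22, limma adjusted p = 6.56e-08), and by -2.84 without replicate 1 (adjusted p = 3.71e-07). Lbp, which binds bacterial lipopolysaccharide, fell by less, Lbp (-1.09 and -1.24). Orm1, α1-acid glycoprotein, rose, reading 6.03, 7.22, 6.41 and 6.29 at day 2 and 7.44, 9.92, 8.85 and 8.59 at day 9, with replicate 1 the lowest and replicate 2 the highest. Orm1 differed by 2.22 (SE 0.38, limma adjusted p = 0.000258), and by 2.63 without replicate 1 (adjusted p = 2.19e-05). Orm2 rose from under the line, Orm2 (1.20 and 1.47, 0.76 with an offset of 16, with its day 2 mean under the detection line). In the interferon list 0 of 18 tested members were called higher and 6 lower, with 0 higher and 5 lower without replicate 1. B2m, the light chain of class I antigen presentation, read 11.63, 11.80, 11.57 and 11.51 at day 2 and 11.25, 10.96, 10.75 and 10.44 at day 9. B2m differed by -0.78 (SE 0.18, limma adjusted p = 0.00345), and by -0.91 without replicate 1 (adjusted p = 0.00153). The interferon-induced GTPases Ifi47 (-0.94 and -0.93) and Igtp (-0.81 and -0.79, not called without day 9 replicate 4) fell too.

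Transcripts of antibody-secreting cells rose. Of the B cell and plasma cell markers 6 of 11 tested members were called higher and 0 lower, or 4 higher and 0 lower without replicate 1, where Igk was no longer tested and Prdm1 no longer called. Igk was tested only because its day 9 mean reached the detection line (4.22, against at most 3.89 at the other stages). The summed intensity of the markers was 796 to 1451 at day 2, 4385 in day 9 replicate 1 and 2674 to 5050 in the other 3 day 9 arrays. Ighm, the heavy chain of IgM, read 6.71, 7.71, 7.67 and 7.24 at day 2 and 10.10, 9.20, 10.37 and 9.92 at day 9. Ighm differed by 2.56 (SE 0.40, limma adjusted p = 0.000103), and by 2.50 without replicate 1 (adjusted p = 0.000468), 0.44 averaged over all its probe sets. Of the other Ighm probe sets tested, 3 were called higher and 2 were not called, with differences below 0. Igha, the heavy chain of the IgA secreted into milk, read 8.65, 9.56, 9.86 and 9.29 at day 2 and 11.46, 10.73, 11.65 and 11.28 at day 9. Igha differed by 1.94 (SE 0.37, limma adjusted p = 0.000657), and by 1.88 without replicate 1 (adjusted p = 0.00267), 0.75 averaged over all its probe sets. Jchain, which joins IgA and IgM into polymers, read 4.23, 5.17, 5.45 and 5.36 at day 2 and 6.93, 6.67, 7.13 and 6.52 at day 9, with no overlap. Jchain differed by 1.76 (SE 0.37, limma adjusted p = 0.00145), and by 1.72 without replicate 1 (adjusted p = 0.00498). Replicate 1 lay inside the day 9 range in all 3 and replicate 2 was the lowest or second lowest. The B cell surface genes were near the detection line or not called: Cd79a averaged 4.27 and 4.64, Ms4a1 read 5.42 ± 0.10 at day 2 and 5.58 ± 0.16 at day 9 (mean ± SD, n = 4 each), and 9 of 20 markers were under the line in all 8 arrays, among them Pax5 and Sdc1. Lactation day 1 had lain above day 2 in Ighm, Igha and Jchain, at 8.76, 10.39 and 6.38, and the day 10 arrays reached 12.65, 13.40 and 9.82. A grouping by symbol made after these values were seen found 66 immunoglobulin probe sets, of which 32 were tested, 23 were called higher and 0 lower (20 higher without replicate 1). Some of the 23, Igk among them, reached the detection line only in their day 9 mean. Such sets could hardly be called lower, so the filter in part fixed the direction of these counts. Of the 32 tested sets 19 share probes within a family, and 18 of these 19 were called higher. Of the 7 tested sets with no class letter (described further on), 4 were called higher. The V segment names of the 19, such as Igkv6-14, are uncertain, and these sets may read the same transcripts.

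Matrix genes of fibroblasts fell, and replicate 1 was the lowest array. Of the fibroblast and matrix markers 2 of 42 tested members were called higher and 18 lower, with 1 higher and 16 lower without replicate 1 (median difference -0.63, and -0.44 without replicate 1). The list median in day 9 replicates 1 to 4 was -0.91, -0.31, -0.72 and -0.35, and the summed intensity was 10705 to 14390 at day 2, 3868 in day 9 replicate 1 and 6898 to 9271 in the other 3 day 9 arrays. Col1a1, the main chain of collagen I, read 10.88, 10.85, 10.75 and 10.32 at day 2 and 7.53, 10.23, 9.73 and 10.03 at day 9. Replicate 1 was far under the other 3, which still all lay under day 2. Col1a1 differed by -1.32 (SE 0.38, limma adjusted p = 0.0159), and by -0.70 without replicate 1 (adjusted p = 0.0114), not called in the 8 arrays alone. The day 10 arrays, at 7.04 to 8.55, were nearer to replicate 1. Sparc, a collagen-binding matrix protein, read 11.23, 10.90, 10.70 and 10.74 at day 2 and 8.01, 10.26, 9.87 and 9.65 at day 9. Sparc differed by -1.45 (SE 0.32, limma adjusted p = 0.00257), and by -0.97 without replicate 1 (adjusted p = 0.00197). Lum, lumican, read 7.41, 7.43, 7.06 and 6.82 at day 2 and 3.66, 6.55, 5.23 and 5.61 at day 9. Lum differed by -1.91 (SE 0.37, limma adjusted p = 0.00072), and by -1.38 without replicate 1 (adjusted p = 0.000404). Fn1, fibronectin, and Sparcl1 were not called, at 8.02 ± 0.21 at day 2 and 7.89 ± 0.52 at day 9 (mean ± SD, n = 4 each) and 7.0 ± 0.29 at day 2 and 6.99 ± 0.23 at day 9 (mean ± SD, n = 4 each). The part of a varying share of stroma in the other results was not tested.

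**Figure D3:**
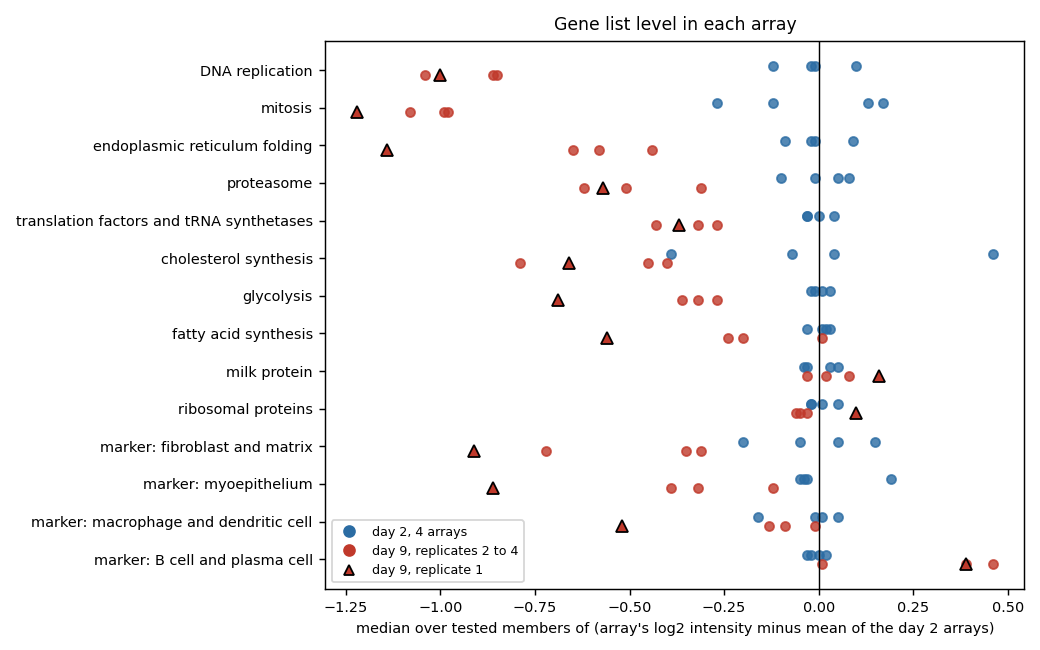
Median over the tested members of 14 gene lists of the log2 intensity of each array minus the mean of the 4 lactation day 2 arrays; blue circles are day 2 arrays, red circles day 9 replicates 2 to 4 and the triangle day 9 replicate 1. Replicate 1 is the lowest array for endoplasmic reticulum folding (-1.14), fibroblast (-0.91), myoepithelial (-0.86) and glycolysis genes (-0.69) and lies among its group for DNA replication (-1.0).

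Markers of other stromal, immune and basal cells were called in part. In myoepithelium 0 of 14 tested members were called higher and 6 lower, with 0 higher and 4 lower without replicate 1 (median difference -0.43, and -0.21 without replicate 1). Acta2, smooth muscle actin of the contractile cells, read 10.13, 10.30, 10.34 and 10.28 at day 2 and 9.03, 9.76, 9.63 and 9.13 at day 9. Acta2 differed by -0.87 (SE 0.16, limma adjusted p = 0.000584), and by -0.76 without replicate 1 (adjusted p = 0.00294), -0.56 after quantile normalization. Mylk, a contractile kinase, was called lower, Mylk (-0.87 and -0.53, a call lost when any 1 of 2 arrays was left out, replicate 1 among them, not called in the 8 arrays alone), and Myh11 was not, Myh11 (-0.43 and -0.21, called without day 9 replicate 3). Among adipocyte markers 2 of 18 tested members were called higher and 2 lower (2 higher and 1 lower without replicate 1), and their summed intensity was 11407 to 13926 at day 2, 10982 in day 9 replicate 1 and 11428 to 12513 in the other 3 day 9 arrays. Adipoq, adiponectin, read 10.31, 10.86, 10.54 and 9.99 at day 2 and 9.34, 10.16, 9.47 and 9.79 at day 9, overlapping, Adipoq (-0.74 and -0.62, a call lost when any 1 of 4 arrays was left out, replicate 1 among them, -0.44 and not called after quantile normalization). The lipase Pnpla2 rose, Pnpla2 (0.87 and 0.77). Among endothelial markers 2 of 19 tested members were called higher and 2 lower, the same counts without replicate 1, with the vascular cadherin Cdh5 (-0.75 and -0.73) and the adhesion molecule Pecam1 (0.59 and 0.56, not called without replicates 1 and 2) in opposite directions. Of the macrophage and dendritic markers 0 of 22 tested members were called higher and 5 lower, or 1 higher and 3 lower without replicate 1. Lyz2, lysozyme of macrophages, fell, 7.52, 8.30, 8.62 and 7.72 at day 2 and 6.45, 6.98, 6.47 and 6.63 at day 9. Lyz2 differed by -1.41 (SE 0.22, limma adjusted p = 0.000126), and by -1.35 without replicate 1 (adjusted p = 0.00062), -0.67 averaged over all its probe sets. Both Laptm5 (-1.33 and -1.12, -0.61 averaged over all its probe sets) and Cd74 (-0.88 and -0.60, not called without replicates 1 and 2) were lower too. The complement gene C1qa read 7.97, 8.16, 7.67 and 7.55 at day 2 and 7.34, 8.57, 8.76 and 8.94 at day 9, with replicate 1 under day 2 and the others above it, C1qa (0.57 and 0.92, called without replicate 1, 0.74 and called after quantile normalization, called with array weights). Of the T and natural killer cell markers, 11 of 20 were under the line in all 8 arrays, and 0 of 8 tested members were called higher and 1 lower, or 0 higher and 0 lower without replicate 1. The one called was the chemokine Ccl5 (-1.15 and -0.99, a call lost when any 1 of 3 arrays was left out, replicate 1 among them, -0.76 with an offset of 16).

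Red cell transcripts set the day 9 arrays apart from one another. Hba-a1, α-globin, read 11.05, 10.51, 10.83 and 10.21 at day 2 and 9.12, 13.12, 11.95 and 12.49 at day 9, and Hbb-b2, β-globin, 10.25, 9.67, 10.32 and 9.47 at day 2 and 7.75, 12.97, 11.31 and 11.94 at day 9. Day 9 replicate 1 was the lowest and replicate 2 the highest of all 8 arrays in both. Neither was called over all arrays, Hba-a1 (1.02 and 1.87, called without replicate 1, called with array weights) and Hbb-b2 (1.07 and 2.15, called without replicate 1). Their day 10 ranges were 9.53 to 10.54 and 8.49 to 9.88. Alas2, of haem synthesis in red cells, had the same order of arrays and was called higher, Alas2 (1.45 and 2.08, a call lost when any 1 of 5 arrays was left out, replicate 1 not among them, 0.84 with an offset of 16, not called in the 8 arrays alone, with its day 2 mean under the detection line). In Col1a1, Saa2 and Orm1, too, replicate 1 was the lowest and replicate 2 the highest day 9 array. The part of blood content in the results was not tested. Of the liver, skeletal muscle, epidermal, and neutrophil and mast cell markers, 9 of 16, 17 of 24, 8 of 14 and 9 of 15 were under the line in all 8 arrays, and their called members rose by 0.23 to 0.74. In the same order, 1 of 6, 2 of 6, 1 of 6 and 1 of 5 tested members were called higher and 0 lower. Without replicate 1, 0, 1, 1 and 0 were called higher. The calls were lost in 11 of 17 alternatives for Apob, 4 of 17 for Tnni2, 1 of 14 for Mb, 0 of 19 for Sprr1b and 6 of 19 for Tpsb2. Replicate 2 lay at 0.01 to 0.03 on the median of each of these lists and the other 3 day 9 arrays at 0.08 to 0.29.

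**Figure D4:**
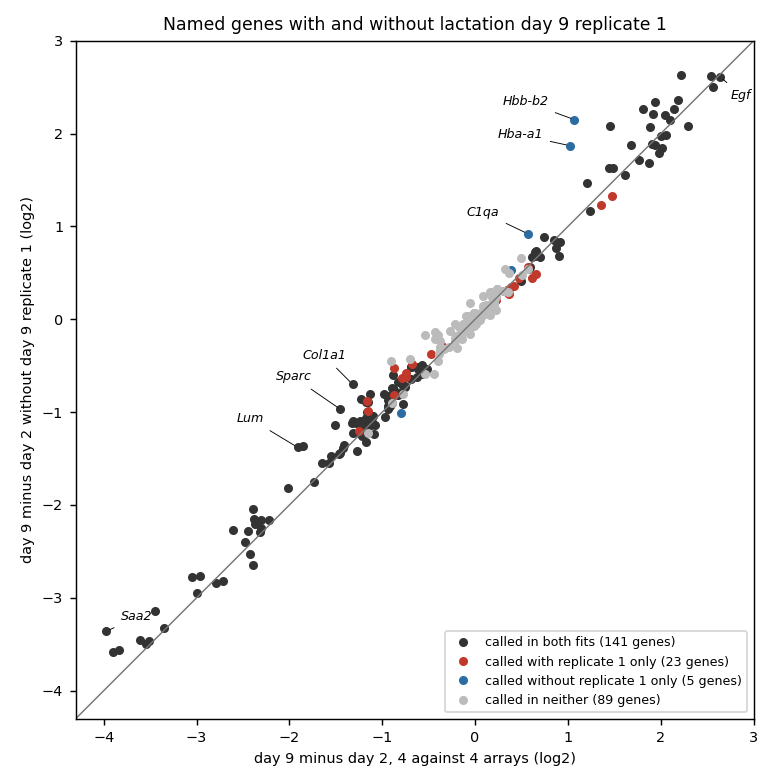
log2 difference of 258 named genes between lactation days 9 and 2 over 4 against 4 arrays (horizontal) and without day 9 replicate 1 (vertical); the line marks equality and colours give the calls. Of the genes, 141 were called in both fits, 23 only with replicate 1, 5 only without it and 89 in neither; collagen and other matrix genes lie above the line at the left and globins above it at the right.

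The kind of probe set went with the direction of change. On this array a final r marks probe sets for which the usual selection rules had to be relaxed, f marks sets that share probes within a gene family, and i sets with fewer probes. Of 450 tested r sets, 109 (24.2%) were called higher and 11 (2.44%) lower, against 525 (7.79%) and 1152 (17.1%) of the other 6739. They made up 6.26% of tested probe sets and 28.0% of those called and at least 2-fold higher (40 of 143). Without replicate 1, 95 of the 450 (21.1%) were higher. Their median level in day 9 replicates 1 to 4 was 0.26, -0.01, 0.22 and 0.28 relative to day 2. Restricted to the sets of none of these 3 classes, a choice made after seeing the data, 410 of 6037 probe sets were called higher and 1044 lower, 67 and 271 of them at least 2-fold. Several of the largest rises were r sets, so their gene names are uncertain. Reg2 read 6.60, 6.49, 6.83 and 6.69 at day 2 and 8.62, 8.75, 8.78 and 8.87 at day 9. Pla2g4f read 6.84, 6.66, 6.41 and 6.55 at day 2 and 8.59, 8.19, 8.69 and 8.62 at day 9. Prol1 read 4.79, 4.49, 4.58 and 4.93 at day 2 and 5.16, 7.44, 5.93 and 7.53 at day 9, with no overlap of the days in any of the 3. Egf, Slc39a8, Igf1, Ighm, Igha, Nr1d2, Mt1 and Orm1 are not of the r, f or i class.

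**Figure D5:**
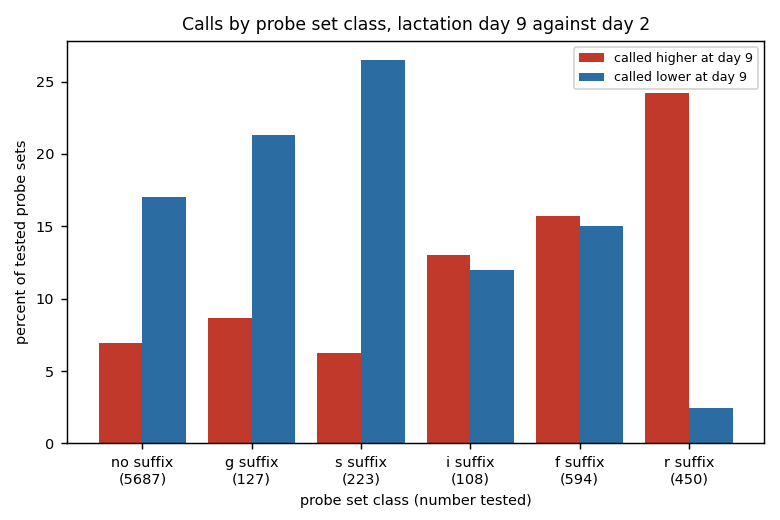
Percent of tested probe sets called higher (red) and lower (blue) at lactation day 9 against day 2, by the class letter that ends the probe set's name, with the number tested in brackets. Calls are mostly lower in sets with no letter (17.0% against 6.91%) and mostly higher in r sets (24.2% against 2.44%).

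Set against the 4 earlier stages, most called changes took day 9 past the range of those stages. Of the 634 probe sets called higher, 563 (88.8%) had their highest stage mean at day 9, compared with 31.0% of all tested. Of the 1163 called lower, 965 (83.0%) had their lowest there, compared with 30.7%. Among these 1163, 215 had peaked at day 2, like Pkm, Dhcr7 and Rrm2, compared with 663 of all 7189 tested. These shares are descriptive, since a probe set called higher than day 2 is more likely to be the highest at day 9. Likewise, a probe set called lower is more likely to be lowest at day 9 or to peak at day 2.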

How the data were processed

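The deposited values are array intensities on a linear scale, 1 per probe set of the Affymetrix MG-U74Av2 array, made by the authors with GCRMA per the submitters' processing notes; its version is not given in the sources used here. GCRMA subtracts a background modelled on probe sequence, and the set of arrays normalized together is not given in the sources used here. Values under 1 were set to 1 and log2 was taken, with no further scaling. Of 12488 probe sets, 66 controls were left out, and 10855 carried a single gene name in the platform annotation. The filter kept probe sets for which a stage mean reached 18.6, the median intensity. limma 3.58.1 in R 4.3.3 was fitted to the 20 chow arrays, 4 at each of 5 stages, with Benjamini-Hochberg adjustment over all 7189 tested probe sets and a threshold of 0.05. A gene is read from its brightest probe set.

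Genes were named by a rule: the 20 strongest changes each way among calls with separated arrays, then from each list at most 4 called members by size and 2 uncalled ones by brightness, plus a short set of milk, lipid and stromal genes, among which Prlr was not analysed here. Hspa5, Per2, Cry1, Elovl5, Usf2, Igk, Prdm1, Cd79a, Pax5 and Sdc1 fall outside it and were picked once their values had been seen. The comparison, the members and the gene lists were chosen with earlier results of these data known. Alternatives changed the filter, scaling, offset, model and arrays. The number of arrays limits the precision. Promoter windows are RefSeq's of GRCm38.p6.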

Additional observations from a re-analysis of the deposited data

Results flagged for a closer look

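Of 342 groups of 4 arrays whose values are given (160 genes and 11 gene lists, at 2 days), 15 held an array far from the other 3, past the 95% critical value of Dixon's test, and chance flags about 1 in 20 groups. In day 9 replicate 1 these were Ccnd1 (4.59, against 6.47 to 6.58 in the other 3), Mylk (5.78, against 7.06 to 7.25) and Slc39a8 (11.96, against 12.26 to 12.31). In day 9 replicate 2 they were Eprs (5.89, against 4.92 to 5.04), Pcna (8.05, against 7.43 to 7.50), Rrm2 (4.93, against 4.35 to 4.44), Hmgb2 (5.24, against 5.55 to 5.61), Ms4a1 (5.34, against 5.65 to 5.67) and the median of the B cell and plasma cell markers relative to day 2 (0.01, against 0.39 to 0.46). In day 9 replicate 3 they were Fn1 (8.67, against 7.59 to 7.64) and Id2 (9.28, against 8.49 to 8.60). In day 2 replicate 2 they were Fkbp5 (7.50, against 6.50 to 6.62), Hspa5 (11.69, against 11.77 to 11.79) and Id2 (9.20, against 10.05 to 10.22), and in day 2 replicate 1 the median of the myoepithelial markers (0.19, against -0.05 to -0.03).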

How the results depend on the processing

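Over the main fit and the alternatives that keep single probe sets, the count of called probe sets ranged from 1454 to 2541. The lowest count was of 6037 tested, with r, f and i probe sets removed, and the highest of 7189, with array weights. With 1 of the 8 arrays left out at a time it ranged from 1470 to 2104, with 485 to 861 higher and 967 to 1243 lower, and 130 to 150 and 247 to 358 at least 2-fold. The count called higher moved most: it was 1131 of 12422 tested with no filter and 375 of 3893 with a filter at the 75th percentile. With array weights it was 1066 of 7189, against 634 of 7189 in the main fit. The filters changed the number tested, so their counts are to be read against it. With r, f and i probe sets removed, chosen after seeing the data, the count called higher was 410 of 6037, and 67 at least 2-fold. With log2 of the value plus 16, 195 were at least 2-fold lower. With no filter 3253 of 12422 probe sets (26.2%) did not overlap, a smaller share than the 29.5% of 7189 in the main fit. Leaving out day 9 replicates 1 and 2 together, also chosen after seeing the data, gave 1574 called. The cause of these shifts was not tested. Scd1 reversed when all its probe sets were averaged, to 0.605, through its r probe set. Replicate numbers showed no consistent pairing: deviations of same-numbered arrays correlated at -0.103, 0.197, -0.02 and -0.069. Those of differently numbered arrays ran from -0.172 to 0.16. With the replicate block 1803 probe sets were called, 630 higher and 1173 lower. Of 164 named genes called, 128 kept their call wherever they were tested in the 19 alternatives not chosen after seeing the data. With the other 2 as well, 122 did, of which 104 were tested in all 21 alternatives, the average over a gene's probe sets included. Dim probe sets limit the sizes: under the detection line no exact change was measured.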
